A study of Mus musculus with 4 samples.

Results

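Cytosolic ribosomal protein genes encode the protein part of the ribosome that translates messenger RNA in the cytoplasm. They were taken from the deposited table by name, as every name of the form Rpl or Rps with a number and at most 1 further letter, together with *Rplp0* to *Rplp2* and *Rpsa*. This gave 81 genes of the 22479 distinct gene names in the table, 32 of the small subunit and 49 of the large subunit. Each of the 81 names stood in 1 row of the table, and 6 of these rows merged the gene with a neighbour. The names cover 77 genes of the common ribosome and 4 paralogs, *Rpl3l*, *Rpl10l*, *Rpl39l* and *Rps27l*. Further ribosomal proteins fall outside this naming rule, among them those of *Fau* and *Gnb2l1*, and they are given separately.

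The ribosome has a small subunit, which holds the messenger RNA and reads its codons, and a large subunit, which joins amino acids and releases the growing protein through an exit tunnel. Each protein of the common ribosome is needed in about 1 copy per ribosome, apart from the acidic proteins of the stalk. Cells thus make most of their messenger RNAs at high and similar levels. Most of these messenger RNAs begin with a pyrimidine tract, the 5′ TOP motif, through which the mTOR pathway and the protein LARP1 control their translation. In the mammary gland, ribosome content is known to grow with the secretory epithelium during pregnancy.

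Mammary glands of 4 virgin mice were compared, 2 miR-21+/+ and 2 miR-21-/-, all 2 months old by the labels and of the mixed strain 129SV::FVB/N::C57BL/6. The miR-21-/- mice carry a deletion of the microRNA gene throughout the body, so the comparison is not limited to the mammary epithelium, and the labels give the tissue as mammary gland. Poly(A) RNA was sequenced, and the table gives 1 FPKM value (sequenced fragments scaled to exon length and to the library total) for each genotype, in which the authors combined the 2 mice. The spread between mice is therefore unknown, no test across mice could be made, and the differences below have no replicate check. A log2 ratio is the log2 of the miR-21-/- value over the miR-21+/+ value, without a pseudocount, and 80 of the 81 genes had a mean of at least 1 FPKM and entered the counts. In bulk tissue, fewer cells of a type and less RNA per cell cannot be told apart. The table's status column reads OK, a completed test, for 80 of the 81 genes and NOTEST, too little signal, for *Rpl10l*.

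Ribosomal protein genes were among the most abundant in the gland. Of the 100 named genes with the highest mean FPKM, 34 were ribosomal protein genes, and of the highest 200 they made up 68. Their values summed to 33717 FPKM in miR-21+/+ and 36031 FPKM in miR-21-/- glands, or 8.86% and 10.1% of the sum over named loci. FPKM is scaled to transcript length, which allows a rough comparison of levels between genes. Reads shared with copies elsewhere in the genome, described further on, make single levels uncertain. Among the 77 genes without the paralogs, 66 lay between 200 and 700 FPKM in each genotype, and the median was 427 FPKM in miR-21+/+ and 470.0 FPKM in miR-21-/- glands. The order of the levels was nearly the same in both genotypes, with a Spearman correlation across these 77 genes of 0.99, a description over genes that share the same libraries.

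The highest level belonged to *Rplp1*, an acidic stalk protein, with 973 FPKM in miR-21+/+ and 1043 FPKM in miR-21-/- glands. It was followed by *Rps12* with 862 and 949.7 FPKM and by *Rpl41*, the gene of the shortest ribosomal protein, with 826 and 792 FPKM. *Rps27*, *Rps4x*, *Rpl23a*, *Rpl10*, *Rps15*, *Rps3a* and *Rps9* completed the 10 most abundant, between 582 and 728 FPKM in miR-21+/+ and between 656 and 824 FPKM in miR-21-/- glands. At the other end stood *Rps15a*, a protein of the small subunit body, with 42.4 and 44.5 FPKM, and *Rpl22*, an RNA-binding protein of the large subunit, with 81.1 and 91.2 FPKM. *Rplp1* was thus 22.9 times as high as *Rps15a* in miR-21+/+ and 23.4 times as high in miR-21-/- glands. The plot of levels shows these few genes below a dense group on the line of equal FPKM.

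**Figure D1:**
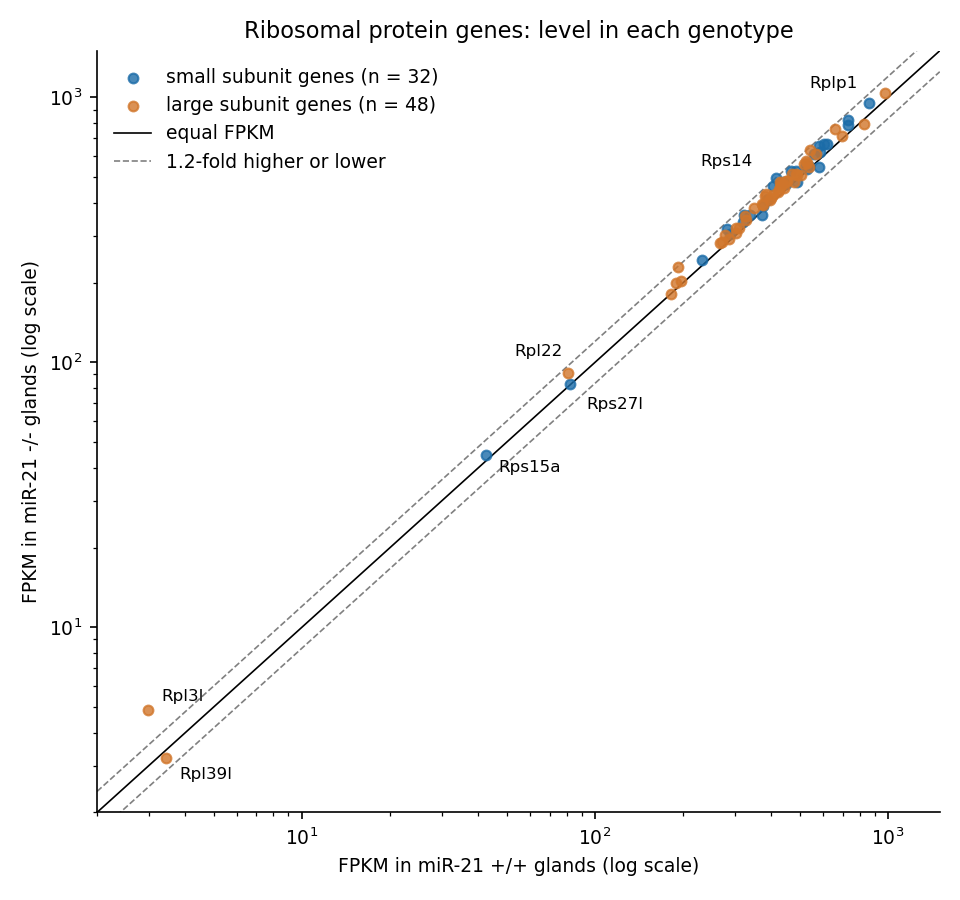
FPKM of the 80 ribosomal protein genes of mean 1 FPKM or more in miR-21+/+ glands (horizontal axis, log scale) and miR-21-/- glands (vertical axis, log scale), 1 point per gene and 1 pooled value per genotype, with blue for the small and orange for the large subunit. All points but *Rpl3l* lie between the dashed lines of 1.2-fold difference, and most lie above the line of equal FPKM.

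Between the genotypes the ribosomal protein genes differed little, and nearly all in the same direction. The log2 ratio was above 0 for 73 of the 80 genes and below 0 for 7, against 44.4% of all 13633 named genes of mean 1 FPKM or more that were above 0. The median log2 ratio was 0.09, a ratio of 1.06, with quartiles of 0.06 and 0.14, while the other named genes had a median of −0.03 and quartiles of −0.17 and 0.11. The difference of the medians was 0.11. Of the 80 genes, 68 had a log2 ratio above 0 and at most 0.2, and 5 exceeded 0.2. Of the other named genes, 27.5% had a higher log2 ratio than the median ribosomal protein gene. The sum over all members was 1.07 times as high in miR-21-/- glands.

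Only *Rpl3l* reached a 1.2-fold difference, which is 0.26 on the log2 scale, and it was higher in miR-21-/- glands. No member was lower by 1.2-fold. Among all named genes 12.7% were higher and 17.0% lower by this limit. Just under the limit lay *Rps14*, a small subunit protein at the platform, with 414 FPKM in miR-21+/+ and 495 FPKM in miR-21-/- glands and a log2 ratio of 0.26 that is below the limit before rounding. *Rpl21* followed with 192 and 228 FPKM and a log2 ratio of 0.25. On the lower side the nearest to the limit were *Rpl39l* at −0.10 and *Rps2* at −0.08. The ordered plot of the log2 ratios shows a smooth series from −0.10 to 0.26 and *Rpl3l* apart from it at 0.71. With the FPKM columns scaled to equal sums over all loci, which lowers every log2 ratio by 0.63, 79 of the 80 genes were lower by at least 1.2-fold, and *Rpl3l* alone stayed above 0. The same scaling turns every ratio between 0 and 0.63 negative, in the lists described further on as well. In miR-21-/- glands the total over all loci was higher, 1175600 against 759295 FPKM. Over named loci it was lower, 355385 against 380567 FPKM, so the excess lay in loci without a gene name. With equal sums over named loci the members' median was 0.19, and with the median of the named genes set to 0 it was 0.11. The direction of the members on an absolute scale thus depends on the scaling, and only equal sums over all loci reversed it. The members' difference from the other named genes, 0.11, is the same under any such scaling by construction.

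**Figure D2:**
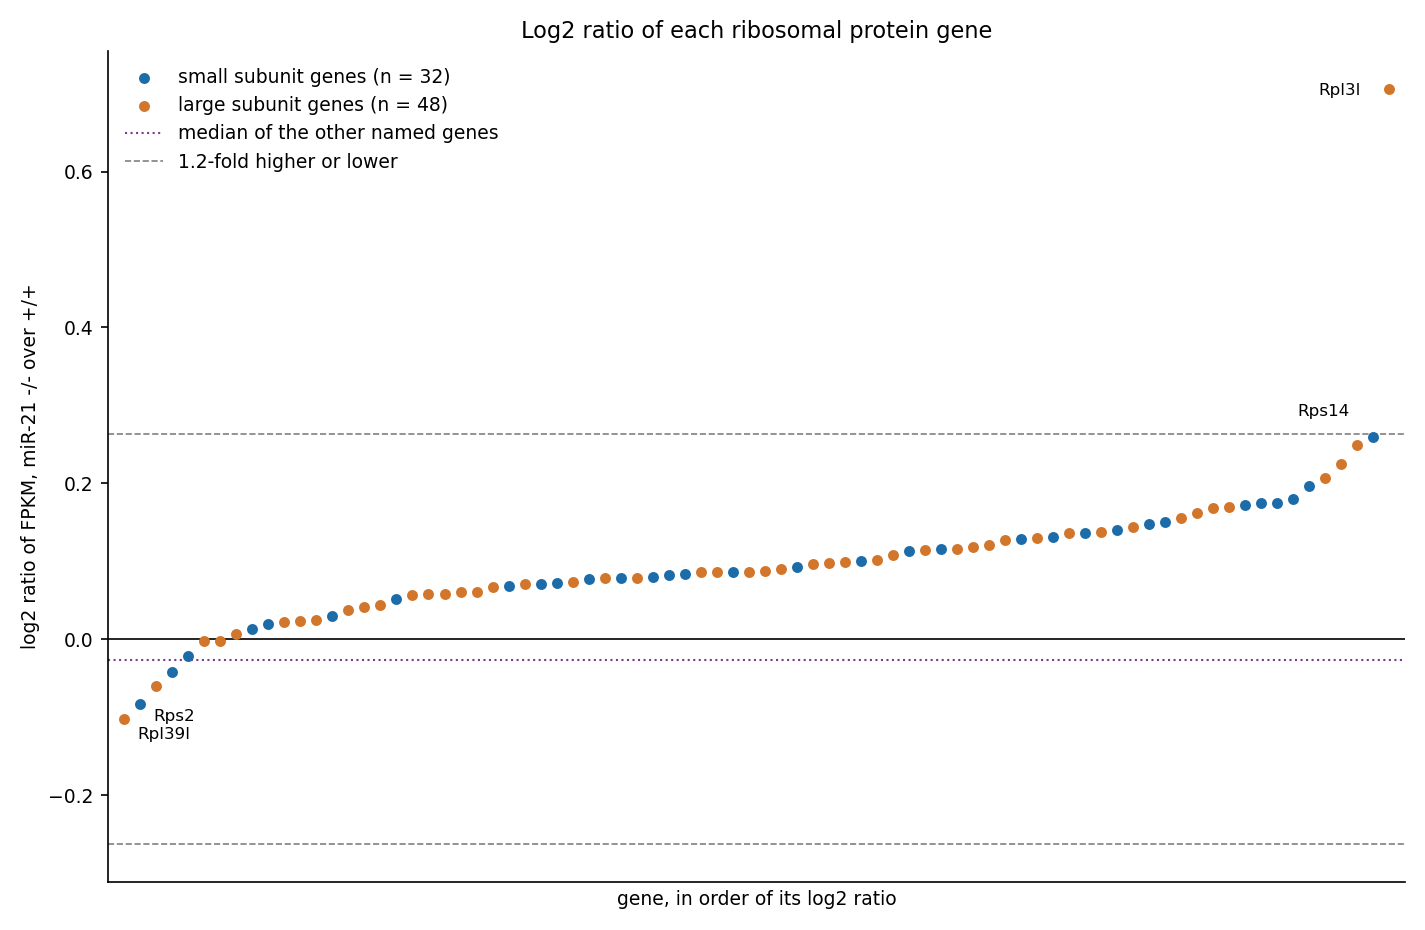
Log2 ratio of FPKM, miR-21-/- over miR-21+/+ (vertical axis), for each of the 80 ribosomal protein genes in order of the ratio (horizontal axis), blue for the small and orange for the large subunit, with dashed lines at a 1.2-fold difference and a dotted line at the median of the other named genes, −0.03. Both colours run through the whole series, 7 genes lie below 0, and *Rpl3l* stands apart at 0.71.

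In the small subunit, 29 of 32 genes had a log2 ratio above 0 and the median was 0.09. The sum over these genes was 14441 FPKM in miR-21+/+ and 15506 FPKM in miR-21-/- glands. After *Rps14* the highest log2 ratios were those of *Rps21*, with 405 and 464 FPKM and 0.20, *Rps27*, with 727 and 824 FPKM and 0.18, and *Rps23*, with 281 and 317 FPKM and 0.17. *Rps23* lies at the decoding centre, where codon and anticodon are matched. *Rps2* and *Rpsa* were the lowest, both below 0. *Rps2*, at the messenger RNA entry site, had 579.6 FPKM in miR-21+/+ and 547 FPKM in miR-21-/- glands. *Rpsa*, also known as the laminin receptor precursor, had 372 and 361 FPKM and a log2 ratio of −0.04.

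Several small subunit proteins have known roles in the control of translation. *Rps6*, the main substrate of the S6 kinases under mTOR, had 390.1 FPKM in miR-21+/+ and 412 FPKM in miR-21-/- glands, a log2 ratio of 0.08. *Rps19*, the gene most often mutated in Diamond-Blackfan anaemia, had 319.9 and 339 FPKM and also 0.08. *Rps25*, which takes part in translation from internal ribosome entry sites, had 374 and 388 FPKM and 0.05. *Rps27a*, made as a fusion with ubiquitin, had 323 and 358 FPKM and 0.15. These 4 ratios lay on both sides of the small subunit median. Over the 19 listed genes tied to Diamond-Blackfan anaemia, in either subunit, 18 were above 0 and the median was 0.09, and the one below 0 was *Rpl15*, with 182 FPKM in both genotypes.

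In the large subunit, 44 of 48 genes had a log2 ratio above 0 and the median was 0.09, with sums of 19276 and 20525 FPKM. Before rounding, the medians were 0.0895 for the small and 0.0870 for the large subunit. After *Rpl3l* and *Rpl21*, the highest log2 ratios were those of *Rpl7*, with 543 FPKM in miR-21+/+ and 634 FPKM in miR-21-/- glands and 0.22, and *Rpl23a*, with 658 and 759 FPKM and 0.21. The row of *Rpl23a* also carries *Nek8*, whose reads the table does not separate. Below 0 were *Rpl39l*, *Rpl41*, *Rpl15* and *Rplp2*, of which *Rpl41* was lowest among the genes of the common ribosome at −0.06. *Rpl39*, in the wall of the exit tunnel, had 505 and 508 FPKM and 0.01.

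The stalk of the large subunit, which recruits translation factors, consists of *Rplp0* and dimers of *Rplp1* and *Rplp2*. *Rplp0* had 469.9 FPKM in miR-21+/+ and 514 FPKM in miR-21-/- glands, a log2 ratio of 0.13. *Rplp1* had a log2 ratio of 0.10, whereas *Rplp2*, with 479 and 478 FPKM, stood at equal levels.

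Proteins with other known positions or roles lay in the same narrow range. *Rpl5* and *Rpl11* form a particle with 5S ribosomal RNA that can bind MDM2, the inhibitor of p53. *Rpl5* had 277 and 302 FPKM, a log2 ratio of 0.12, and *Rpl11* had 537 and 545 FPKM, 0.02. The 7 listed genes around the exit tunnel, *Rpl17*, *Rpl19*, *Rpl23a*, *Rpl26*, *Rpl31*, *Rpl35* and *Rpl39*, were all above 0, from 0.01 to 0.21. *Rpl38*, known from the translation of Hox messenger RNAs in mice, had 395 and 412 FPKM and 0.06. *Rpl10a* had 347 and 384 FPKM and 0.14. The 33 members with a bacterial counterpart had a median of 0.10 with 30 above 0, and the 44 of the common ribosome without one had a median of 0.09 with 41 above 0.

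Paralogs of ribosomal proteins are often restricted to a tissue, and the 4 among the members were low beside their common counterparts. *Rpl3l* is made in skeletal muscle and heart, where it replaces *Rpl3*. It had 2.99 FPKM in miR-21+/+ and 4.89 FPKM in miR-21-/- glands, 1.63 times as high, or a log2 ratio of 0.71. *Rpl3* itself had 448 and 485 FPKM, so *Rpl3l* stood at 0.669% of *Rpl3* in miR-21+/+ and at 1.01% in miR-21-/- glands. *Rpl3l* lies on chromosome 17 (mm9, 24864734 to 24873124) 5862 bases past the end of *Rps2* (24857008 to 24858872), so the highest log2 ratio of all members and the lowest of the common ribosome lie close together in the genome.

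The skeletal muscle markers moved in the direction of *Rpl3l*: all 8 listed markers were higher in miR-21-/- glands by at least 1.2-fold, with a median log2 ratio of 0.73, and their sum was 1248 FPKM in miR-21+/+ and 2057 FPKM in miR-21-/- glands. None of them was listed at 0, and the status of *Myh4* was FAIL rather than OK. Their part in the value of *Rpl3l* was not tested. Muscle paralogs in the lists of other complexes, named after their values were seen, lay on both sides of 0. *Eef1a2*, an elongation factor of muscle and nerve, had 9.27 and 14.2 FPKM and a log2 ratio of 0.61, and *Cox6a2*, a cytochrome oxidase subunit of muscle, had 6.29 and 12.3 FPKM and 0.97. The cytochrome oxidase isoforms *Cox7a1* and *Cox8b*, known from muscle and brown fat, were lower, with 22.95 and 13.2 FPKM and −0.80 for the first and 123 and 77.6 FPKM and −0.66 for the second.

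*Rps27l*, a p53-responsive paralog of *Rps27*, was the most abundant paralog, with 81.9 FPKM in miR-21+/+ and 82.6 FPKM in miR-21-/- glands, or 11.3% and 10.03% of *Rps27*. *Rpl10l*, known from the testis, was listed at 0 in miR-21+/+ and had 0.0106 FPKM in miR-21-/- glands, and no ratio was computed. *Rpl39l*, also known from the testis, had 3.45 and 3.22 FPKM, or 0.683% and 0.633% of *Rpl39*, and its log2 ratio of −0.10 was the lowest of the 80.

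The coding sequences of *Rpl39* and *Rpl39l* are shown because a value of a few FPKM beside a copy at 505 FPKM depends on telling their reads apart. *Rpl39* lies on chromosome X (mm9, 34622515 to 34625179) and *Rpl39l* on chromosome 16 (10170321 to 10175004). Each spliced coding sequence, from GENCODE transcripts of mm9, is 156 nt long, and capitals mark the 23 bases that differ, an identity of 85.3%.
Rpl39: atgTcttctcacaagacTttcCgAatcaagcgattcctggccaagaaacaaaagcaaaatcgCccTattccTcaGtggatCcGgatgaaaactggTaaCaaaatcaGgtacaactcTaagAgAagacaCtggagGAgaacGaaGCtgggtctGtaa
Rpl39l: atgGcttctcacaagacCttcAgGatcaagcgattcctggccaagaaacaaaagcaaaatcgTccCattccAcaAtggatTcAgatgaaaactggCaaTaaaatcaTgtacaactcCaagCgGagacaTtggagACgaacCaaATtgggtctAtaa
The longest stretch without a difference is 38 nt, near the start. In the other pairs the identity was 76.1% for *Rps27* and *Rps27l*, with a longest shared stretch of 11 nt, 73.3% for *Rpl3* and *Rpl3l*, with 22 nt, and 84.8% for *Rpl10* and *Rpl10l*, with 23 nt.

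Ribosomal protein genes are known for their many processed copies elsewhere in the genome, which can share reads with the gene and make its value uncertain. How reads that match several places were counted was not given in the sources used here. The coding sequences of 76 of the 77 genes of the common ribosome were searched in mm9, and 73 had at least 1 copy outside their own locus, where a single alignment covered 90% or more of the spliced sequence at 95% identity or more. The median was 6 copies, and the highest counts were 55 for *Rpl21*, 31 for *Rpl7a*, 28 for *Rpl29*, 25 for *Rps2* and 22 for *Rps12*. For 20 genes at least 1 copy was identical over the aligned part. *Rpl21* and *Rps2*, near the ends of the ordered log2 ratios, were thus among the genes with the most copies. Others near the ends had from few to many copies: 2 for *Rps14*, 7 for *Rpl7*, 18 for *Rpl23a*, 11 for *Rpsa* and 1 for *Rplp2*. Genes without such a copy included *Rpl8* and *Rps3*. *Rpl8* had 423 FPKM in miR-21+/+ and 447 FPKM in miR-21-/- glands, and *Rps3* had 231 and 242 FPKM. Their log2 ratios were 0.08 and 0.07, beside the median of 0.09 over all members. Over the 15 genes with more than 10 copies, 12 were above 0 and the median was 0.08. Across the 76 genes the number of copies had a Spearman correlation of −0.03 with the log2 ratio and of 0.03 with the level, as a description only.

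Members are short, with a median coding length of 459 nt against 1353 nt for all named genes, and 64 of the 79 members with an annotated coding sequence had at most 700 nt. Other abundant or short genes were set beside them by counts and medians only. Any part of length or level in the log2 ratios was not tested. Of the 522 other named genes of mean 100 FPKM or more, 32.4% had a log2 ratio above 0 and the median was −0.10. Where such genes also had a coding length of at most 700 nt, 56 of 191 were above 0 and the median was −0.11. Among the members themselves the coding length had a Spearman correlation of 0.04 with the log2 ratio across genes.

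Lists of related genes were set beside the members by their counts and medians. On the deposited scale the mitochondrial ribosome, which translates the few messenger RNAs of the mitochondrial genome, lay on the other side of 0. Of 77 genes with names of the form Mrpl or Mrps and *Dap3*, 11 were above 0 and 66 below, and the median was −0.10. The respiratory chain and ATP synthase list was lower still, with 79 of 80 genes below 0, 47 of them by at least 1.2-fold, and a median of −0.28. The exception was *Cox6a2*. Proteasome subunits had a median of −0.05, with 9 of 37 above 0. Genes named Eif or Eef followed by 1 of the factor numbers were split evenly, 32 of 64 above 0, with a median of 0.00. They were mostly initiation and elongation factors, with some of their kinases and binding proteins and the Argonaute genes *Eif2c1* to *Eif2c4*. Equal sums over named loci raise every log2 ratio by 0.099, so the side of 0 of a list can depend on the scaling. Differences between the lists do not change under such scaling. They were not tested, and the plot by gene group shows the medians and quartiles of the lists.

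**Figure D3:**
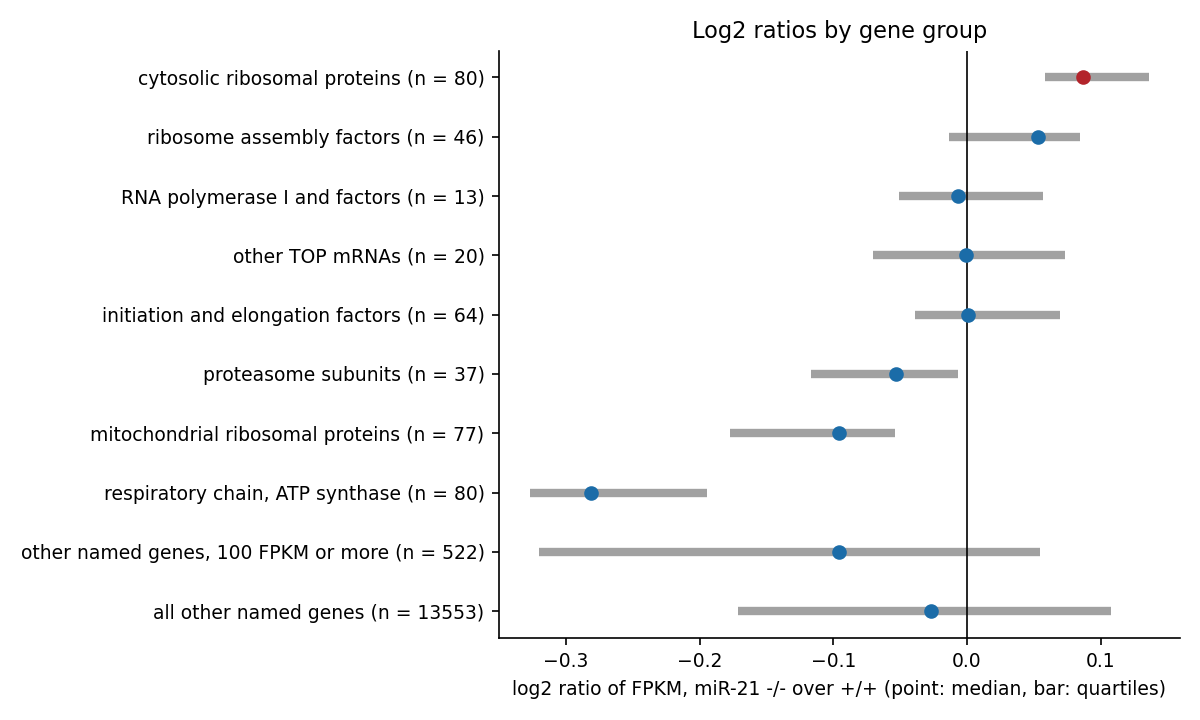
Median (point) and quartiles (bar) of the log2 ratio of FPKM, miR-21-/- over miR-21+/+ (horizontal axis), for the cytosolic ribosomal protein genes (red) and for other groups of genes (blue), each with its number of genes. The ribosomal protein genes have a median of 0.09 and quartiles above 0, and the respiratory chain and ATP synthase genes have a median of −0.28 and quartiles below 0.

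The 6 ribosomal protein genes outside the naming rule were, on the deposited scale, all closer to 0 than the median member. *Fau*, a ubiquitin-like fusion that yields protein S30, had 376 FPKM in miR-21+/+ and 396 FPKM in miR-21-/- glands, a log2 ratio of 0.08. *Gnb2l1*, the table's name for the scaffold protein RACK1 of the small subunit, had 394 and 401 FPKM and 0.03. The paralogs *Rpl36al*, *Rpl22l1* and *Rpl7l1* had log2 ratios of 0.05, −0.06 and 0.03. *Rpl22l1*, with 67.4 and 64.7 FPKM, stood near *Rpl22*, with 81.1 and 91.2 FPKM. *Rpl36al* had 138 and 143 FPKM beside 325 and 357 FPKM for *Rpl36a*. *Rpl7l1* was low, with 29.2 and 29.7 FPKM beside 543 and 634 FPKM for *Rpl7*.

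Among ribosome assembly factors, the proteins that process ribosomal RNA and build the subunits in the nucleolus, 33 of 46 were above 0 and the median was 0.05. One passed 1.2-fold, *Noc3l*, with 5.21 and 6.28 FPKM and a log2 ratio of 0.27. The most abundant, *Npm1* (nucleophosmin), had 213.9 and 215 FPKM, and *Ncl* (nucleolin) had 43.5 and 44.9 FPKM, with log2 ratios of 0.01 and 0.05. *Dkc1*, the pseudouridine synthase of the nucleolus, was lowest with 13.3 and 11.1 FPKM and −0.26. RNA polymerase I and its factors, which make ribosomal RNA, had 6 of 13 genes above 0, none past 1.2-fold, and a median of −0.01.

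As a list and on the deposited scale, other genes whose messenger RNAs carry a 5′ TOP motif did not share the members' direction. Of 20, 9 were above 0 and the median was −0.00, so its side of 0 depends on the scaling. *Eef1a1*, the elongation factor that delivers transfer RNA, had 2655 and 2632 FPKM, and *Eef2*, which moves the ribosome along, had 642 FPKM in both genotypes. *Pabpc1*, the poly(A) binding protein, had 231 and 266 FPKM and the highest log2 ratio of the list, 0.20, and *Tpt1* (translationally controlled tumour protein) had 741 and 805 FPKM and 0.12. The lowest was *Gas5*, a noncoding host of small nucleolar RNAs, with 93.4 and 75.8 FPKM and −0.30. In the list of growth control genes upstream of ribosome synthesis, 9 of 19 were above 0 and the median was −0.00. *Eif4ebp1*, the translation repressor that mTOR inhibits, was lower by 1.2-fold, with 113 FPKM in miR-21+/+ and 93.9 FPKM in miR-21-/- glands and −0.27. *Cdkn1a*, a p53 target that halts the cell cycle, was higher by 1.2-fold, with 12.7 and 15.8 FPKM and 0.32. *Tsc2*, an inhibitor of mTOR signalling, had 19.5 and 16.4 FPKM and −0.25. *Pdcd4*, an inhibitor of translation initiation and a known target of miR-21, had 43.9 and 45.7 FPKM and 0.06.

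The cell type markers show that the makeup of the tissue RNA differed between the genotypes. The labelled tissue was present, with all 8 markers of mammary epithelium and all 7 of fat detected in both genotypes. All 8 epithelial markers were higher in miR-21-/- glands, 7 of them by at least 1.2-fold, with a median log2 ratio of 0.53 and sums of 649.7 and 897 FPKM. Of the 7 fat markers, 6 were lower, 4 of them by 1.2-fold, with a median of −0.40 and sums of 10722 and 7877 FPKM, and *Lep* (leptin) was higher. All 7 B cell markers and all 8 T cell markers were lower by 1.2-fold, with medians of −2.96 and −2.31. The B cell markers summed to 103 FPKM in miR-21+/+ and 53.4 FPKM in miR-21-/- glands, of which *Cd79a* alone gave 70.3 and 48.3 FPKM, and its log2 ratio of −0.54 was the one closest to 0. The other 6 had log2 ratios from −3.40 to −2.09. The T cell markers summed to 41.6 and 9.41 FPKM. All 5 red cell markers were lower, with a median of −1.30, although the 2 alpha globin genes carry identical values in the table and so do the 2 beta globin genes, which leaves 3 distinct values. All 6 markers of cycling cells were lower, with a median of −0.76, and the status of *Top2a* among them was FAIL rather than OK. None of these markers was listed at 0 in either genotype. With equal sums over all loci the epithelial median turns negative, the muscle median stays above 0, and both then lie closer to 0 than the members' median of −0.54. Apart from *Rpl3l* and on the deposited scale, every ribosomal protein gene had a log2 ratio closer to 0 than the medians of all 7 marker lists, as the plot of markers shows, and the part of the tissue makeup in them was not tested.

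**Figure D4:**
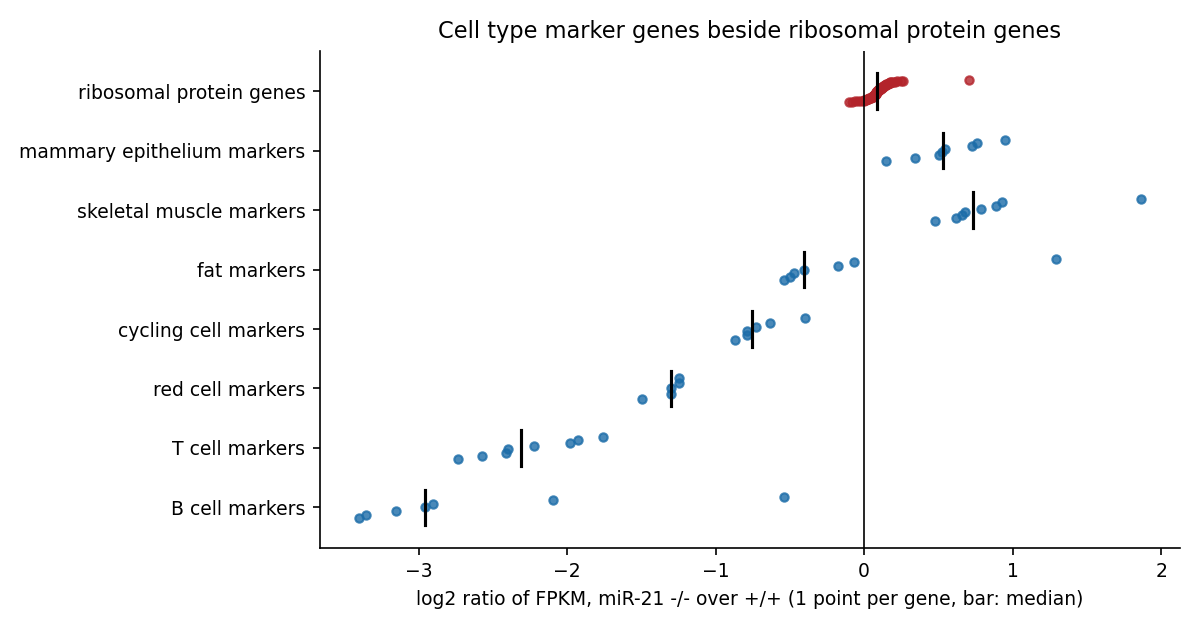
Log2 ratio of FPKM, miR-21-/- over miR-21+/+ (horizontal axis), of each ribosomal protein gene (red) and of each marker gene in 7 cell type lists (blue), 1 point per gene, with a bar at the median. The ribosomal protein genes gather near 0, the epithelial and muscle markers lie to the right, and the lymphocyte and red cell markers lie to the left.

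Promoter sequences are shown because most messenger RNAs of the members are known to start in a pyrimidine tract. RefSeq promoter windows of build GRCm38.p6, from 250 bases before to 50 bases after an annotated start, were found for 60 of the 81 members, 72 windows in all. The windows below run from 50 bases before the start to 20 after it, and capitals mark a run of at least 8 C or T bases that lies within 20 bases of the start on either side. The first 3 belong to the genes with the lowest log2 ratio and the next 3 to those with the highest, among members of the common ribosome with a single window, and the last is the first of the 2 windows of the muscle paralog.
Rps2 (chr17:24720013-24720082, plus strand): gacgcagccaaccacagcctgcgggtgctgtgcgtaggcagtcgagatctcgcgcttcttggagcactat
Rpl41 (chr10:128549149-128549218, minus strand): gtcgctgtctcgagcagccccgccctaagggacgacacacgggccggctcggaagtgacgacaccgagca
Rpsa (chr9:120127716-120127785, plus strand): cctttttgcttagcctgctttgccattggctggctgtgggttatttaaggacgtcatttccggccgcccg
Rps9 (chr7:3703991-3704060, plus strand): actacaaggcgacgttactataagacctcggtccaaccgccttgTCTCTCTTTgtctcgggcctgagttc
Rps23 (chr13:90923072-90923141, plus strand): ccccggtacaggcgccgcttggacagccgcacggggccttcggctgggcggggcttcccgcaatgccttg
Rps27 (chr3:90213629-90213698, minus strand): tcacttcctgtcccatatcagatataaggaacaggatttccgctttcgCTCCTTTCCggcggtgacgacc
Rpl3l (chr17:24727776-24727845, plus strand): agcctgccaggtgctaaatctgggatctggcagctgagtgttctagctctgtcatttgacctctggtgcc
*Rps9* and *Rps27* hold a tract of 9 bases across their annotated starts, and the other 5 windows hold none of 8 bases within 20 bases of the start.

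Over the 66 windows of the common ribosome genes, 43.9% held such a tract near the start, against 16.05% of all 32851 windows. Shorter runs near the annotated start, such as the 6 bases in *Rps2* and *Rps23*, were not counted. A gene without a counted tract is therefore not shown to lack a TOP motif. The letters CGGAAG, the core of a site for ETS family factors, stood on either strand in 62.1% of these windows and in 16.9% of all. On either strand TCTCGCGA stood in 16.7% and 0.995%, AAGATGG, which belongs to the site of YY1, in 16.7% and 6.34%, and TATAAA in 9.09% and 13.6%. Each was searched in the whole window, and matches of different letters may overlap. The 28 genes with a tract in at least 1 window had a median log2 ratio of 0.08, from −0.00 to 0.18, and the 28 without one also had a median of 0.08, from −0.08 to 0.20. The genes with a tract had a median level of 429.7 FPKM in miR-21+/+ and 457 FPKM in miR-21-/- glands, and those without one 374 and 393 FPKM.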

How the data were processed

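Poly(A) RNA of mammary tissue from 2 miR-21+/+ and 2 miR-21-/- mice was read from one end on an Illumina HiSeq instrument. Per the study's methods, the authors used TopHat for alignment (build mm9) and Cufflinks for abundance, and the layout of the deposited table is that of Cuffdiff, with 1 FPKM value per genotype for both mice together. Program versions and gene annotation were not given in the sources used here. The table also holds the authors' fold changes, test statistics, p-values and q-values, none of which were used. Depth is unknown, because the file has no counts.

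Log2 ratios were plain ratios of the deposited FPKM values. Named genes of mean 1 FPKM or more entered the counts, a gene was taken by its row of highest mean FPKM, and the limit was 1.2-fold. No test was made, since 1 value per genotype leaves no residual spread, and the planned limma model was not fitted. The members, gene lists and limits were chosen with earlier results of these data known. The members named are the 10 most abundant, those of the 8 highest and 8 lowest log2 ratios (1 is not reported here), those nearest the limit, the paralogs, and listed members of known role. *Rps15a*, *Rpl22*, *Rpl8*, *Rps3*, *Rpl7a* and *Rpl29* were named after their values were seen. Of other lists, abundant or extreme genes are named. Start positions are 1-based. Coding sequences came from GENCODE M1 transcripts (mm9), the CCDS transcript or else the longest. Copies were searched with blastn 2.17.0 (megablast, E value 1e-10), and paralogs were aligned globally with Biopython 1.88. Counting was tested on simulated data. Python 3.11.15, numpy 2.4.6, pandas 2.3.3 and matplotlib 3.10.9 were used. The alternatives were scalings, pseudocounts of 1 and 0.1 FPKM, other FPKM minimums and fold limits, and rows left out.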

Additional observations from a re-analysis of the deposited data

How the results depend on the processing

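No paired analysis was possible because both mice of a genotype share 1 pooled value. For that reason neither a replicate block nor the removal of single mice could be tried. The yardstick for a median was 0.0651, the SD of the log2 ratios among the 77 genes without paralogs, and for a count a factor of 1.5. With equal sums over all loci the medians were −0.54 for all members, −0.54 for the small and −0.54 for the large subunit, the summed FPKM had a log2 ratio of −0.53, 0 genes were higher and 79 lower by 1.2-fold, and 1 was above 0. With equal sums over named loci the medians were 0.19, 0.19 and 0.19, the sum 0.19, and 12 genes were higher by 1.2-fold. With the median of the named genes set to 0, 3 genes were higher by 1.2-fold. The count of 1 gene higher became 0 with a minimum of 5 FPKM, at a 2-fold limit, and without the 4 paralogs, an alternative chosen after seeing the data, because each removes *Rpl3l* or its call. The difference from the other named genes is fixed by construction under the scalings, and lay between 0.11 and 0.12 under the choices of rows, pseudocount and FPKM minimum. The unknown depth limits the precision of *Rpl3l*, *Rpl39l* and *Rpl10l* most.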

Other observations

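Kinases named for ribosomal protein S6 are no ribosomal proteins and were not among the members. *Rps6kb1* and *Rps6kb2*, the S6 kinases under mTOR, had 11.97 and 11.0 FPKM in miR-21+/+ and 11.1 and 10.2 FPKM in miR-21-/- glands, with log2 ratios of −0.11 and −0.10. In the RSK family, *Rps6ka1* had 12.1 and 11.2 FPKM with a status of FAIL, and *Rps6ka2* had 2.46 and 2.48 FPKM. *Rps6ka3* stood in 2 rows, both with a status of FAIL and both higher by over 1.2-fold, with 18.6 and 22.8 FPKM and a log2 ratio of 0.29 in one and 6.52 and 9.39 FPKM and 0.53 in the other. *Rps6ka6* had 1.14 and 1.23 FPKM and 0.11. In the related MSK family, *Rps6ka4*, whose row also carries *Mir5046*, had 16.6 and 14.7 FPKM and −0.18, and *Rps6ka5* had 3.31 FPKM in both genotypes. *Rps6kl1*, which is named for its likeness to these kinases, had 0.373 FPKM in miR-21+/+ and 1.23 FPKM in miR-21-/- glands, a log2 ratio of 1.72 at a low level.

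Rows named for ribosomal protein pseudogenes also held signal. *Rps19-ps3* had 68.1 FPKM in miR-21+/+ and 70.5 FPKM in miR-21-/- glands, and the row shared by *Rplp2-ps1* and *Wdr89* had 105 and 100.3 FPKM. The table does not show whether these reads came from the copy or from the parent gene.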
